A study of Bos taurus with 24 samples.

Results

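ICAM1, VCAM1, ALCAM, CD44 and THY1, surface proteins that leukocytes hold on to, were followed in bovine dermal fibroblasts through a lipopolysaccharide (LPS) challenge. The members were the rows of the expression tables that carry these 5 symbols, out of 27550 rows with a gene symbol and 59846 rows in all. Where a symbol stood on several rows, the row with the most counts was taken, which applied to ICAM1 alone with 2 rows. The fibroblasts came from shoulder skin of 4 Angus (beef) and 4 Holstein (dairy) heifers in the second year of life, and each animal's culture was sampled with no LPS (0 h) and at 2 h and 8 h of 100 ng/ml LPS. This gave 24 samples in 6 groups of 4. All cultures had been passaged, frozen and revived before the challenge. A sample is the lysate of a pair of wells of 1 animal at 1 hour. No culture was kept for 2 h or 8 h without LPS, so LPS and time in the plate cannot be told apart.

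Leukocytes leave the blood and move through tissue by gripping such proteins with their own receptors. ICAM1 is bound by the beta2 integrins and VCAM1 by the alpha4 integrins, and in many cell types both genes are switched on by NF-kB after LPS or inflammatory cytokines. ALCAM, another member of the immunoglobulin family, binds CD6 on lymphocytes as well as itself. CD44 is the main surface receptor for hyaluronan, a sugar polymer of the matrix on which leukocytes roll and crawl. THY1 is a small lipid-anchored protein that marks many fibroblasts and can bind integrins. In skin, fibroblasts stand where cells that have left a vessel move on or settle.

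Levels are counts scaled to a library of 1000000 (CPM) after scaling by trimmed mean of M-values (TMM), from total counts of 51014538 to 104406293 per sample. A limit of 3 counts stood for 0.0287 to 0.0588 CPM. The threshold for a changed row was a false discovery rate (FDR) under 0.05 together with a 2-fold change or more and an average above 1 CPM. Rows are whole gene spans with introns and differ in how reads were credited to them, so levels are compared between samples and never between genes. Summed over the 9 fibroblast markers looked at, the level was 37700 to 124000 CPM. The 11 leukocyte markers summed to 2.78 to 6.55 CPM, with ITGB2 and SPI1 at no more than 0.0255 and 0.0418 CPM, while CD68 was at 1.35 to 4.34 CPM and CD14, LCP1 and PTPRC reached 0.983, 0.921 and 0.709 CPM. The 9 endothelial markers summed to 2.51 to 5.69 CPM, with KDR, TIE1, CLDN5 and ROBO4 at no more than 0.0628, 0.0268, 0.00963 and 0.0373 CPM, while VWF was at 0.513 to 3.28 CPM, TEK at 0.523 to 2.72 CPM and PECAM1 reached 1.11 CPM. The 5 mural markers (pericyte and smooth muscle) with a row summed to 130 to 445 CPM. CSPG4 was at 110 to 408 CPM and MYH11 at 15.8 to 44.1 CPM, while RGS5, DES and KCNJ8 reached 3.64, 1.47 and 0.299 CPM. Summed keratinocyte markers reached 14.7 CPM in Holstein and 0.915 CPM in Angus, and melanocyte markers 3.48 CPM. The part of such cells in the members' levels was not tested. In 4 samples (Angus 4, Holstein 2 and Holstein 4 at 0 h and Angus 3 at 2 h) the reads of COL1A1 had been counted in another way, and calls that change without them are given with both values.

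VCAM1, on chromosome 3 from 42703661 to 42766060 (minus strand, build UMD v3.1), had the greatest change of the 5 genes with LPS. Before LPS it was close to silent, at 0.111, 0.355, 0.605 and 0.0578 CPM in Angus animals 1 to 4 and at 0.599, 0.468, 0.294 and 0.22 CPM in Holstein animals 1 to 4. At 2 h the Angus levels were 1.32, 4.73, 6.57 and 0.279 CPM and the Holstein levels 3.47, 8.49, 1.22 and 3.11 CPM. At 8 h the Angus levels were 3.33, 12.7, 10.3 and 0.45 CPM and the Holstein levels 19.4, 48.9, 11.3 and 17.3 CPM. Each of the 8 animals had its lowest VCAM1 level at 0 h and its highest at 8 h. Holstein 2 stood highest at 2 h and 8 h, and Angus 4 stood lowest at every hour, so that its level at 8 h lay within the range of the samples without LPS. In counts, VCAM1 ran from 6 to 3936 per sample. In RNA of a whole culture, more cells with a transcript and more transcript per cell cannot be told apart. The summed endothelial markers were 2.51 to 4.8 CPM in Holstein at 0 h and 3.76 to 5.69 CPM at 8 h, and their part in the VCAM1 levels was not tested.

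In Holstein fibroblasts VCAM1 rose 10.2-fold by 2 h (log2 3.35 ± 0.55 SE, FDR = 4.38e-07, n = 4) and 60.8-fold by 8 h (log2 5.93 ± 0.47, FDR = 1.52e-23). It also rose 5.95-fold between 2 h and 8 h (log2 2.57 ± 0.58, FDR = 0.000327). The 0 h and 2 h levels did not overlap in Holstein, nor did the 2 h and 8 h levels, and the share of all rows like this was not counted. At 2 h VCAM1 was the single member past the threshold in Holstein, where 3.14% of all rows tested were past it in either direction. At 8 h it was VCAM1 and CD44, against 2.51% of all rows, and from 2 h to 8 h VCAM1 alone, against 3.91%. These VCAM1 calls held without each animal in turn and under every other setting.

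In Angus fibroblasts, as with the breeds combined, VCAM1 was under the expression filter (1 CPM in 50% of the samples compared) when LPS was set against 0 h. No member was past the threshold in Angus, where the share of all rows past it was 2.98% at 2 h, 0.863% at 8 h and 2.36% from 2 h to 8 h. The quasi-likelihood F test and DESeq2 put none past it either, and at an unadjusted p under 0.05 there were 1, 1 and 0 members. With the filter on, these tests could not call VCAM1 at 2 h or 8 h against 0 h, since it was left out. With the filter lifted, VCAM1 was 11.3-fold higher at 2 h (log2 3.5 ± 0.86, FDR = 0.00647) and 23.4-fold higher at 8 h (log2 4.55 ± 0.87, FDR = 0.00132), against 1.25% and 0.364% of all rows past the threshold without the filter. Both Angus calls were lost without Angus 2, with values of 3.39 (FDR = 0.103) and 4.17 (FDR = 0.0612), and under the quasi-likelihood F test (FDR = 0.0596 and 0.0867). The 2 h call was also lost without the samples with other COL1A1 counting (2.55, FDR = 0.0984). With the animal as a block and no filter both calls were kept, at 3.44 (FDR = 2.98e-46) and 4.48 (FDR = 2.85e-65). The block with the quasi-likelihood F test kept them too (FDR = 2.8e-06 and 3.98e-07), as did DESeq2 without a block (FDR = 0.00932 and 0.000957). From 2 h to 8 h the Angus difference was 1.06 ± 0.98 on the log2 scale and did not pass (FDR = 0.618). With the animal as a block it did pass, at 1.06 (FDR = 3.24e-07), and every Angus animal was higher at 8 h, by 1.57-fold to 2.68-fold.

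With both breeds combined and no filter, VCAM1 rose 10.7-fold at 2 h (log2 3.42 ± 0.54, FDR = 2.99e-07) and 45.0-fold at 8 h (log2 5.49 ± 0.59, FDR = 6.42e-12), where 1.19% and 0.613% of all rows were past the threshold. With the filter, none of the other 4 members was past the threshold at 2 h or at 8 h, against 2.82% and 1.42% of all rows. At an unadjusted p under 0.05, 2 of the 4 tested stood out at 2 h and 1 at 8 h, and neither the quasi-likelihood F test nor DESeq2 put any of them past the threshold.

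**Figure D1:**
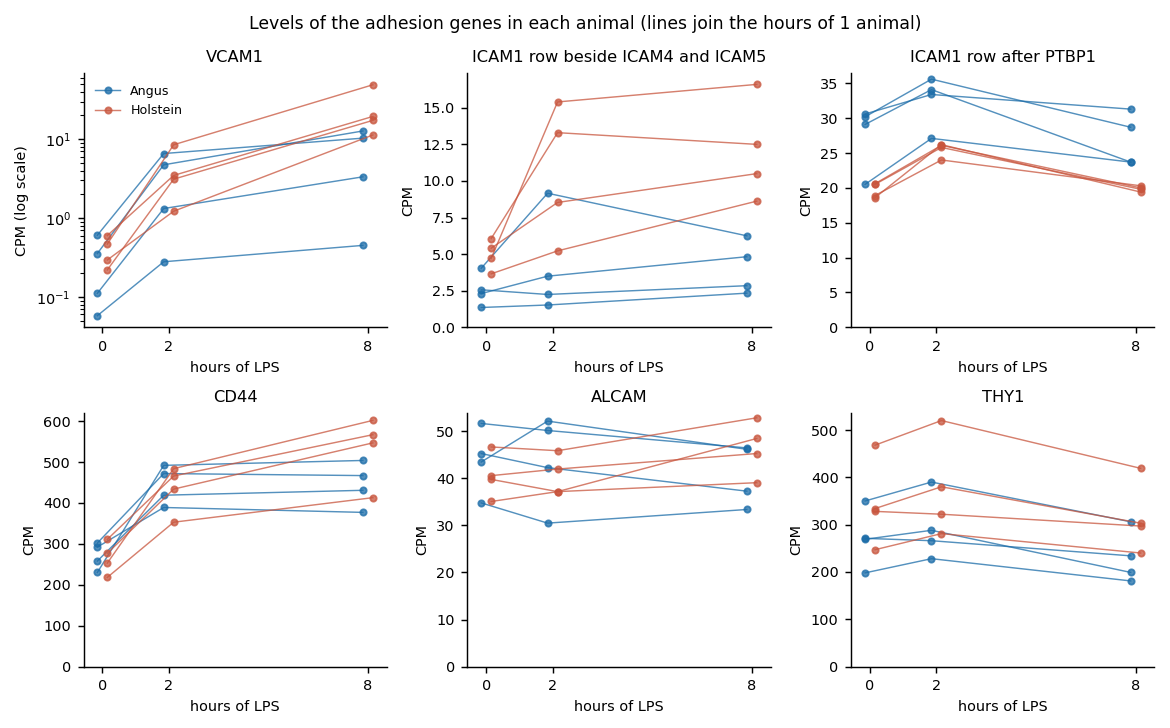
CPM of each member (y axis, from 0 except for VCAM1, which has a log axis) at 0, 2 and 8 hours of LPS (x axis), with a line for each animal, Angus in blue and Holstein in red. VCAM1 climbs in all 8 animals, CD44 sits higher at both LPS hours than at 0 h in each animal, and ALCAM and THY1 stay within the spread between animals.

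Between the breeds, mean VCAM1 was 0.396 ± 0.171 CPM (SD, n = 4) in Holstein and 0.282 ± 0.251 CPM in Angus at 0 h, 4.07 ± 3.11 against 3.23 ± 2.93 CPM at 2 h, and 24.2 ± 16.8 against 6.69 ± 5.75 CPM at 8 h. In order of mean level the groups ran from Angus at 0 h through Holstein at 0 h, Angus at 2 h, Holstein at 2 h and Angus at 8 h to Holstein at 8 h, and each neighbouring pair overlapped. The breed difference at 8 h was 3.62-fold (log2 1.85 ± 0.79, 95% interval 0.31 to 3.40) and did not pass the FDR limit (FDR = 0.10). At 2 h it was 0.33 ± 0.82 (FDR = 0.821). The interaction of breed and LPS was -0.16 ± 1.09 at 2 h and 1.37 ± 1.06 at 8 h without the filter (FDR = 1 for both), which leaves room for large differences either way. With the animal as a block the 8 h interaction was 1.31 ± 0.39 (FDR = 0.0863).

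The change per animal from 2 h to 8 h did not overlap between the breeds for VCAM1 and CD44, 2 of the 5 members, as was so for 11.9% of the rows with a count in every sample. VCAM1 went up by 5.56-fold to 9.31-fold in the Holstein animals and by 1.57-fold to 2.68-fold in the Angus animals, a difference of 1.65 in mean log2 change. CD44 went up by 1.17-fold to 1.26-fold in Holstein and changed by 0.97-fold to 1.03-fold in Angus over the same hours. From 0 h to 8 h ALCAM was the 1 member whose changes did not overlap, against 7.35% of these rows, with 1.11-fold to 1.22-fold in Holstein and 0.822-fold to 1.06-fold in Angus. A two-sided exact permutation test over the 8 animals gave p = 0.0286 for each of the 3, the smallest that 4 against 4 animals allow. After adjustment over the 18 changes examined in this way (5 members and the other ICAM1 row over 3 pairs of hours) the value was 0.172, and the test was added after these values had been seen.

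ICAM1 stood on 2 rows whose values differed in pattern over the 24 samples. The row with the most counts, and so the member by the rule, is a stretch of 556 bases on chromosome 7 from 45026348 to 45026903 (minus strand). It lies 626 bases beyond the end of PTBP1, an RNA-binding protein gene on the plus strand from 45016286 to 45025721. The 626 bases between carry no symbol and were covered by reads at every base in every sample, with a lowest depth of 111 to 412, and so was the 556-base row, with a lowest depth of 19 to 88. The library kit did not mark the strand. Across the 24 samples the 556-base row followed PTBP1 (Pearson r = 0.957 on log2(CPM + 1), a description) and took 12.5% to 15.4% as many counts.

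The second ICAM1 row spans chromosome 7 from 16012113 to 16051454 (plus strand) and lies beside ICAM4 and ICAM5, as ICAM1 does in the RefSeq annotation of a later bovine assembly, where PTBP1 has other neighbours. This row held 92 to 1338 counts per sample. An interval with no symbol from 16029647 to 16051850 overlaps it and was credited with 3.07 to 4.19 times as many counts, while their covered bases were nearly equal (ratio 0.974 to 1.01). The row and the interval moved together (r = 0.997), whereas the 2 ICAM1 rows had a negative correlation over the 24 samples (r = -0.595). That value pools breeds and hours. The 556-base row was lower in Holstein than in Angus and the second row higher, while both rose by 2 h in each Holstein animal. Those rises were 1.26-fold to 1.41-fold and 1.43-fold to 3.28-fold. The places of the rows and the match of the 556-base row to PTBP1 go against the symbol on the 556-base row. It is called the ICAM1-named row after PTBP1 below, and the second is called the ICAM1 locus row, a choice made after the values were seen.

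**Figure D2:**
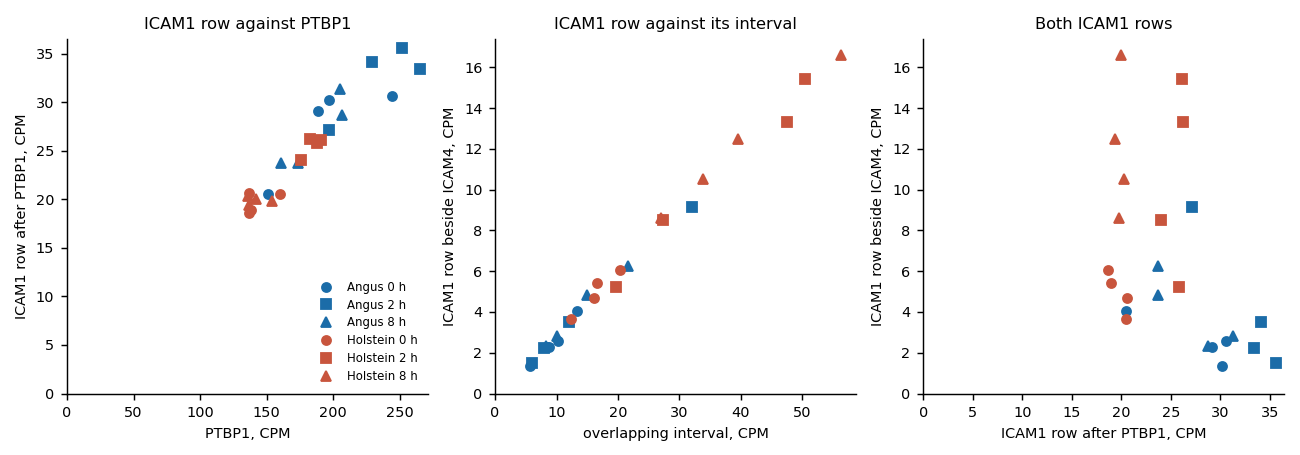
CPM in the 24 samples (points, Angus in blue and Holstein in red, with circles, squares and triangles for 0, 2 and 8 hours of LPS) of the ICAM1-named row against PTBP1 (left), of the ICAM1 locus row against the interval that overlaps it (middle) and of the ICAM1 locus row against the ICAM1-named row (right). The left and middle panels each form a line (r = 0.957 and 0.997), and the right panel does not (r = -0.595).

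The ICAM1 locus row was higher in Holstein than in Angus fibroblasts and rose with LPS in Holstein. Before LPS its levels were 1.35, 2.3, 4.03 and 2.56 CPM in Angus animals 1 to 4 and 3.65, 4.70, 5.40 and 6.06 CPM in the Holstein animals. At 2 h the Angus levels were 1.52, 3.49, 9.16 and 2.24 CPM and the Holstein levels 5.22, 15.4, 8.53 and 13.3 CPM. At 8 h the Angus levels were 2.33, 4.82, 6.25 and 2.84 CPM and the Holstein levels 8.62, 16.6, 10.5 and 12.5 CPM. Angus 3 was the highest Angus animal at every hour, and at 2 h it was above 2 of the 4 Holstein animals. All Holstein samples were above all Angus samples at 8 h, but not at 0 h or 2 h. The breeds were without overlap at 8 h, in either direction, in 20.4% of all rows. In group means the order was 2.56 ± 1.11 CPM (SD) for Angus at 0 h, 4.06 ± 1.81 for Angus at 8 h, 4.10 ± 3.47 for Angus at 2 h, 4.95 ± 1.03 for Holstein at 0 h, 10.6 ± 4.62 for Holstein at 2 h and 12.1 ± 3.43 for Holstein at 8 h. Neighbours in this order overlapped.

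In Holstein the ICAM1 locus row rose 2.14-fold at 2 h (log2 1.10 ± 0.33, FDR = 0.00743) and 2.44-fold at 8 h (log2 1.29 ± 0.24, FDR = 3.76e-06), with higher levels at both hours than at 0 h in each of the 4 animals. The 8 h call held under every setting. The 2 h call was lost without Holstein 2 (0.84, FDR = 0.143), without the samples with other COL1A1 counting (1.23, FDR = 0.0568) and in a fit of all 24 samples (1.10, FDR = 0.0823). In Angus the differences were 0.68 ± 0.55 at 2 h (FDR = 0.541) and 0.66 ± 0.41 at 8 h (FDR = 0.519), and neither passed. All 4 Angus animals were higher at 8 h, by 1.11-fold to 2.10-fold, and with the animal as a block the 8 h value was 0.65 (FDR = 0.00187), past the FDR limit and under the fold limit. The interaction of breed and LPS was 0.43 ± 0.69 at 2 h and 0.61 ± 0.49 at 8 h (FDR = 1 for both), so the response was not shown to differ between breeds. With the breeds combined it was past the threshold at 8 h (log2 1.10 ± 0.38, FDR = 0.0407), and this call was lost under most settings, among them the animal block (0.96, FDR = 4.21e-09), the fit without the samples with other COL1A1 counting (1.27, FDR = 0.0739) and the fits without Angus 2 (1.10, FDR = 0.073), Angus 3 (1.16, FDR = 0.080), Holstein 1 (1.08, FDR = 0.107), Holstein 2 (0.91, FDR = 0.141), Holstein 3 (1.13, FDR = 0.0771) or Holstein 4 (1.12, FDR = 0.0646). At 2 h combined it was 0.97 ± 0.43 (FDR = 0.0939), and 0.73 with the block (FDR = 0.000318).

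Between breeds the ICAM1 locus row was 2.97-fold higher in Holstein at 8 h (log2 1.57 ± 0.34, FDR = 0.000295), a call that every setting kept. At 0 h it was 1.93-fold higher (log2 0.95 ± 0.32, FDR = 0.0306), under the fold limit, and past the threshold without Angus 3 (1.25) or Holstein 1 (1.07). At 2 h it was 2.58-fold higher with a wide error (log2 1.37 ± 0.55, FDR = 0.0637). Angus 3 at 2 h is also a sample with other COL1A1 counting, and without that animal the 2 h difference was 2.13 (FDR = 2.51e-05), as it was 1.60 (FDR = 0.0379) without Holstein 1. The overlapping interval, with more counts, gave 1.14 ± 0.30 and 1.26 ± 0.24 for LPS at 2 h and 8 h in Holstein and 1.52 ± 0.33 for the breeds at 8 h.

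The ICAM1-named row after PTBP1 had 27.6 ± 4.78, 32.5 ± 3.71 and 26.9 ± 3.78 CPM (SD, n = 4) in Angus at 0, 2 and 8 h and 19.7 ± 1.05, 25.5 ± 1.05 and 19.9 ± 0.383 CPM in Holstein. Holstein against Angus it was at -0.49, -0.36 and -0.43 on the log2 scale at 0, 2 and 8 h (FDR = 0.0116, 0.02 and 0.00667), under the fold limit. PTBP1 differed by -0.45, -0.36 and -0.39. In Holstein the row was 0.37 ± 0.09 higher at 2 h than at 0 h (FDR = 0.000526) and PTBP1 likewise 0.37 ± 0.09, and at 8 h they were at 0.02 and 0.00. None of the members by the rule passed the threshold between the breeds, where 3.82%, 4.45% and 3.25% of all rows did at 0, 2 and 8 h. This row was the 1 member whose breeds did not overlap at 2 h and at 8 h, as was so for 24% and 20.4% of all rows, and no member was without overlap at 0 h (17.5% of all rows). At an unadjusted p under 0.05 there were 1, 1 and 3 members at the 3 hours, and the quasi-likelihood F test and DESeq2 also put none past the threshold. No member passed an interaction either, against 0.278% of rows at 2 h and 0.0982% at 8 h, and none had an unadjusted p under 0.05 there.

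CD44, on chromosome 15 from 66454331 to 66541792 (plus strand), was higher at both LPS hours in all 8 animals. Before LPS its levels were 302, 258, 230 and 292 CPM in Angus animals 1 to 4 and 277, 253, 218 and 311 CPM in the Holstein animals. At 2 h they were 472, 419, 492 and 389 CPM in Angus and 434, 484, 353 and 466 CPM in Holstein. At 8 h they were 467, 431, 504 and 377 CPM in Angus and 547, 602, 413 and 567 CPM in Holstein. Every sample with LPS was above every sample without it, and the share of all rows with such a gap was not counted. Holstein 3 was the lowest Holstein animal at each hour. A change in the same direction in all 8 animals was seen in 35.9% of all rows at 2 h and 27.6% at 8 h.

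Combined over the breeds, CD44 was 1.63-fold higher at 2 h (log2 0.71 ± 0.10, FDR = 4.86e-11) and 1.82-fold higher at 8 h (log2 0.86 ± 0.11, FDR = 2.41e-12), past the FDR limit but under a 2-fold change. Of the 4 members tested it was the only 1 to pass the FDR limit alone at either hour, as 22.0% and 12.8% of all rows did. VCAM1 was under the expression filter there, and its values without the filter are given above. In Angus CD44 was 1.64-fold higher at both hours (0.71 ± 0.14, FDR = 1.35e-05 and 6.21e-05). It was again the only 1 of the 4 members tested past the FDR limit, against 13.8% and 3.9% of rows. With the animal as a block, the ICAM1-named row also passed it at 2 h, combined (0.31, FDR = 3.22e-08) and in Angus (0.25, FDR = 0.00483). In Holstein the CD44 difference was 0.71 ± 0.14 at 2 h (FDR = 1.7e-05). By 8 h CD44 rose 2.01-fold there (log2 1.01 ± 0.15, FDR = 2.23e-09), just past the fold limit, and without Holstein 2 it was 0.92 and under it. The FDR limit alone was passed in Holstein by VCAM1, CD44 and the ICAM1-named row at 2 h (17.2% of rows) and by VCAM1 and CD44 at 8 h (14.7%).

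The breeds did not differ detectably in CD44, with -0.03 ± 0.14 at 0 h (95% interval -0.31 to 0.25), -0.03 ± 0.14 at 2 h (-0.31 to 0.24) and 0.26 ± 0.15 at 8 h (-0.03 to 0.55, FDR = 0.224). The interaction was 0.01 ± 0.20 at 2 h and 0.29 ± 0.20 at 8 h. In order of mean level the groups were Holstein at 0 h (265 ± 39.1 CPM, SD), Angus at 0 h (271 ± 33), Holstein at 2 h (434 ± 58), Angus at 2 h (443 ± 47.5), Angus at 8 h (445 ± 54.2) and Holstein at 8 h (532 ± 82.7). The gap between 0 h and the LPS hours was the only place in this order where neighbours did not overlap.

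ALCAM, on chromosome 1 from 50332272 to 50558841 (plus strand), stayed between 30.5 and 52.9 CPM in all 24 samples. Its group means were 43.8 ± 6.98, 43.8 ± 9.84 and 40.8 ± 6.53 CPM (SD) in Angus at 0, 2 and 8 h and 40.5 ± 4.78, 40.6 ± 4.23 and 46.5 ± 5.82 CPM in Holstein. All groups overlapped. Combined over the breeds the difference was 0.00 ± 0.12 at 2 h (95% interval -0.24 to 0.23) and 0.05 ± 0.11 at 8 h (-0.17 to 0.26), so a doubling lies outside both intervals. In Holstein at 8 h each animal was above its own 0 h level, with a difference of 0.20 ± 0.13 (FDR = 0.355). The animal block left the value at 0.20 and put it past the FDR limit (FDR = 0.00128), far from 2-fold. Between breeds the differences were -0.11 ± 0.15, -0.12 ± 0.18 and 0.19 ± 0.15 at 0, 2 and 8 h.

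THY1, on chromosome 15 from 30509504 to 30515399 (minus strand), varied more between animals than between hours. Its levels at 0 h were 198, 350, 271 and 269 CPM in Angus animals 1 to 4 and 328, 468, 247 and 334 CPM in the Holstein animals. Holstein 2 was the highest of all animals at every hour, with 520 CPM at 2 h and 419 CPM at 8 h, and Angus 1 was the lowest, with 228 CPM and 181 CPM. All 8 animals were lower at 8 h than at 0 h, by 0.741-fold to 0.969-fold of the 0 h level. The combined difference at 8 h was -0.18 ± 0.19 (95% interval -0.55 to 0.18, FDR = 0.604) and did not pass. With the animal as a block it was -0.19 (FDR = 0.000851), past the FDR limit and far from 2-fold. At 2 h it was 0.11 ± 0.18 (FDR = 0.77). Mean levels in Holstein were 344 ± 91.4, 376 ± 104 and 315 ± 75.5 CPM (SD) at 0, 2 and 8 h, and in Angus 272 ± 62.1, 293 ± 69.4 and 230 ± 54.8 CPM, and the breeds overlapped at each hour. The breed differences were 0.34 ± 0.22, 0.35 ± 0.23 and 0.46 ± 0.21 (FDR = 0.334, 0.291 and 0.128).

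**Figure D3:**
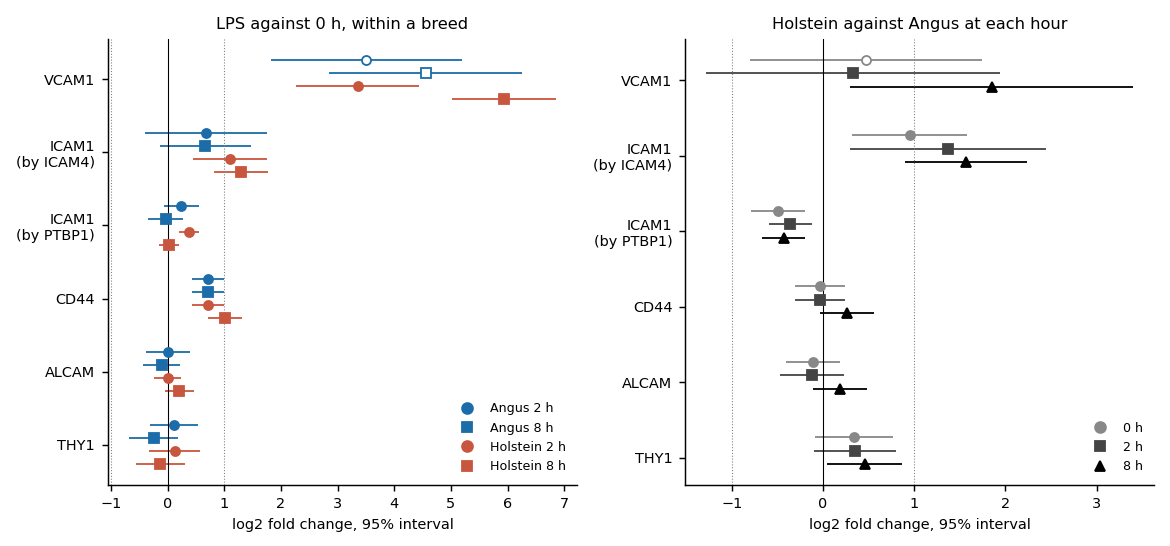
Log2 fold change of each member (points, with 95% intervals) for LPS against 0 h within each breed (left) and for Holstein against Angus at each hour (right), where dotted lines mark a 2-fold change and open points the fits without the expression filter. VCAM1 in both breeds and the ICAM1 locus row and CD44 in Holstein reach past 2-fold with LPS, and the ICAM1 locus row alone of those plotted passed the threshold between breeds, at 8 h.

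The 65 other genes of leukocyte and matrix adhesion that were looked at included 64 with a row, of which 39 to 42 passed the expression filter in a given comparison. With the breeds combined, 3 of 40 tested rose at 2 h and 2 of 39 at 8 h and none fell, where 2.82% and 1.42% of all rows were past the threshold in either direction. Their median log2 change was 0.11 and 0.12, beside -0.004 and -0.007 over all rows. In Holstein 5 of 40 rose at 2 h and 2 of 39 at 8 h, against 3.14% and 2.51% of all rows. In Angus 3 of 40 rose at 2 h and 1 of 41 at 8 h, against 2.98% and 0.863%. Among these, HAS2, HAS1 and TNFAIP6 act on hyaluronan, the ligand of CD44. HAS2, which makes hyaluronan at the cell surface, rose by 4.24 ± 0.41 on the log2 scale at 2 h (FDR = 6.96e-18) and by 3.40 ± 0.34 at 8 h (FDR = 2.17e-17). It was 0.959 ± 0.286 CPM (SD) at 0 h, 16.5 ± 13.7 at 2 h and 5.77 ± 1.74 at 8 h in Angus, and 0.476 ± 0.343, 10.8 ± 5.27 and 9.51 ± 3.20 CPM in Holstein. Of the 10 genes in the list of CD44 ligands and hyaluronan enzymes 7 were tested, and 2 rose at each hour.

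HAS1, a second hyaluronan synthase, rose in Holstein at 2 h (log2 2.60 ± 0.38, FDR = 3.43e-09) and fell again by 8 h (log2 -3.33 ± 0.44, FDR = 9.86e-11). In Angus HAS1 was under the expression filter and so not tested with LPS, at 0.246 to 0.578 CPM at 0 h and 0.848 to 1.75 CPM at 2 h. At 2 h it was 4.29 ± 1.46 CPM in Holstein and 1.19 ± 0.418 CPM in Angus, and the breeds differed (log2 1.85 ± 0.35, FDR = 1.77e-05). TNFAIP6, a secreted protein that binds hyaluronan, rose at 2 h (combined log2 1.71 ± 0.35, FDR = 3.92e-05). In Holstein it was still higher at 8 h than at 0 h (log2 1.20 ± 0.19, FDR = 1.54e-08), a call lost in a fit of all 24 samples (FDR = 0.0629). In Angus its 2 h call (1.69 ± 0.60, FDR = 0.0466) was lost without Angus 1 (1.82, FDR = 0.133), Angus 2 (1.97, FDR = 0.116) or Angus 3 (0.67, FDR = 0.261). It was also lost under the quasi-likelihood F test (FDR = 0.122), also with the block (1.19, FDR = 0.0566), under DESeq2 (FDR = 0.0732), without the filter (FDR = 0.0678), without scaling beyond library size (1.46, FDR = 0.053) and without the samples with other COL1A1 counting (0.53, FDR = 0.378). Its breed difference at 8 h (1.05 ± 0.26, FDR = 0.00213) went under the fold limit without Angus 1 (0.91), Angus 4 (0.92) or Holstein 2 (0.86). The same was so without scaling beyond library size (0.98), and in a fit of all 24 samples the call was lost (1.04, FDR = 0.0872). SPP1, the secreted CD44 and integrin ligand osteopontin, rose at 8 h combined (1.17 ± 0.36, FDR = 0.0163), a call lost without Holstein 2 (1.10, FDR = 0.069). SDC4, a heparan sulfate proteoglycan of cell-matrix contacts, rose at 2 h (1.76 ± 0.18, FDR = 3.01e-20) and in Holstein fell from 2 h to 8 h (-1.27 ± 0.15, FDR = 1.91e-15). HAS2 fell from 2 h to 8 h in Angus (-1.51 ± 0.50, FDR = 0.0305), which was lost without Angus 1 (-1.61, FDR = 0.0723), Angus 2 (-1.64, FDR = 0.144), Angus 3 (-0.96) or the samples with other COL1A1 counting (-0.74, FDR = 0.0896). The quasi-likelihood F test lost the HAS2 call too (-1.51, FDR = 0.0978).

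Between breeds, 1 of 39 listed genes tested was higher in Holstein and 4 lower at 0 h, 2 of 42 higher and 3 lower at 2 h, and 3 of 39 higher and 1 lower at 8 h, where 3.82%, 4.45% and 3.25% of all rows were past the threshold in either direction. SDC1, a syndecan of the same family as SDC4, was higher in Holstein at all hours (log2 1.34 ± 0.23, 1.28 ± 0.22 and 1.17 ± 0.22, FDR = 2.84e-06, 9.23e-07 and 2.57e-05), with 85.2 to 120 CPM in Holstein and 24.1 to 52.5 CPM in Angus at 0 h. Without Angus 4 the 8 h value was 0.98. CADM3, an immunoglobulin-family adhesion protein, was lower in Holstein at all hours (-1.47 ± 0.31, -1.24 ± 0.29 and -1.15 ± 0.29, FDR = 0.00017, 0.000537 and 0.00227). At 0 h, without the samples with other COL1A1 counting, its value was -0.98 (FDR = 0.0763). CADM1, of the same family, was lower at 0 h and 2 h (-1.16 ± 0.24 and -1.29 ± 0.23, FDR = 0.00013 and 2.65e-06). HMMR, a hyaluronan-binding protein that is also part of the mitotic spindle, was lower at 0 h and 2 h (-1.25 ± 0.28 and -1.08 ± 0.28, FDR = 0.000392 and 0.002). The HMMR call was lost at 0 h without the samples with other COL1A1 counting (-0.87, FDR = 0.222), and at 2 h without Angus 4 (-0.93) or Holstein 4 (-0.90). BCAM, a laminin-binding member of the immunoglobulin family, was higher in Holstein and past the threshold at 8 h (1.10 ± 0.20, FDR = 8.97e-06). For CADM1, HMMR and BCAM the means stood in the same direction at the hours without a call. At 8 h CADM1 was at 3.63 CPM in Holstein and 6.89 CPM in Angus, and HMMR at 48.7 and 95.7 CPM. BCAM was at 10.7 and 6.87 CPM at 0 h and at 16.5 and 8.57 CPM at 2 h.

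Most of the leukocyte receptors for these molecules were low. Of 10 listed, 2 passed the filter at 2 h with the breeds combined and 1 at 8 h. ITGB7, an integrin chain that pairs with alpha4 and is named here after its values were seen, had the group means 2.70 to 4.78 CPM and was not past the threshold in any comparison. ITGA4, the alpha4 chain of the VCAM1 receptor, was 1.61 ± 0.479 CPM in Angus and 0.499 ± 0.475 CPM in Holstein at 0 h (log2 -1.68 ± 0.54, FDR = 0.024), a call lost without Holstein 1 (-1.54, FDR = 0.0984), Holstein 3 (-1.47, FDR = 0.0901) or Holstein 4 (-1.39, FDR = 0.0757). With all animals kept, the ITGA4 call was also lost under the quasi-likelihood F test (-1.66, FDR = 0.0798). SELPLG, the ligand of P-selectin, rose in Holstein at 2 h (1.09 ± 0.36, FDR = 0.0203) and not without Holstein 1 (0.97, FDR = 0.194). The quasi-likelihood F test lost this call too (FDR = 0.0602). In Angus SELPLG was under the expression filter and so not tested with LPS, at 0.507 to 0.756 CPM at 0 h and 0.88 to 1.8 CPM at 2 h. ITGB2, the beta2 chain that ICAM1 binds, stayed under the level of 3 counts. None of the listed genes passed an interaction of breed and LPS by the likelihood-ratio test, the quasi-likelihood F test or DESeq2, and 1 had an unadjusted p under 0.05 at 2 h and 3 at 8 h. The same tests put none of the 6 fibroblast integrins, the 4 cytoskeletal linkers and the 3 sheddases measured past the threshold with LPS, breeds combined. At an unadjusted p under 0.05 there were 2 integrins, 1 linker and 1 sheddase at 2 h and 3, 2 and 2 at 8 h.

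**Figure D4:**
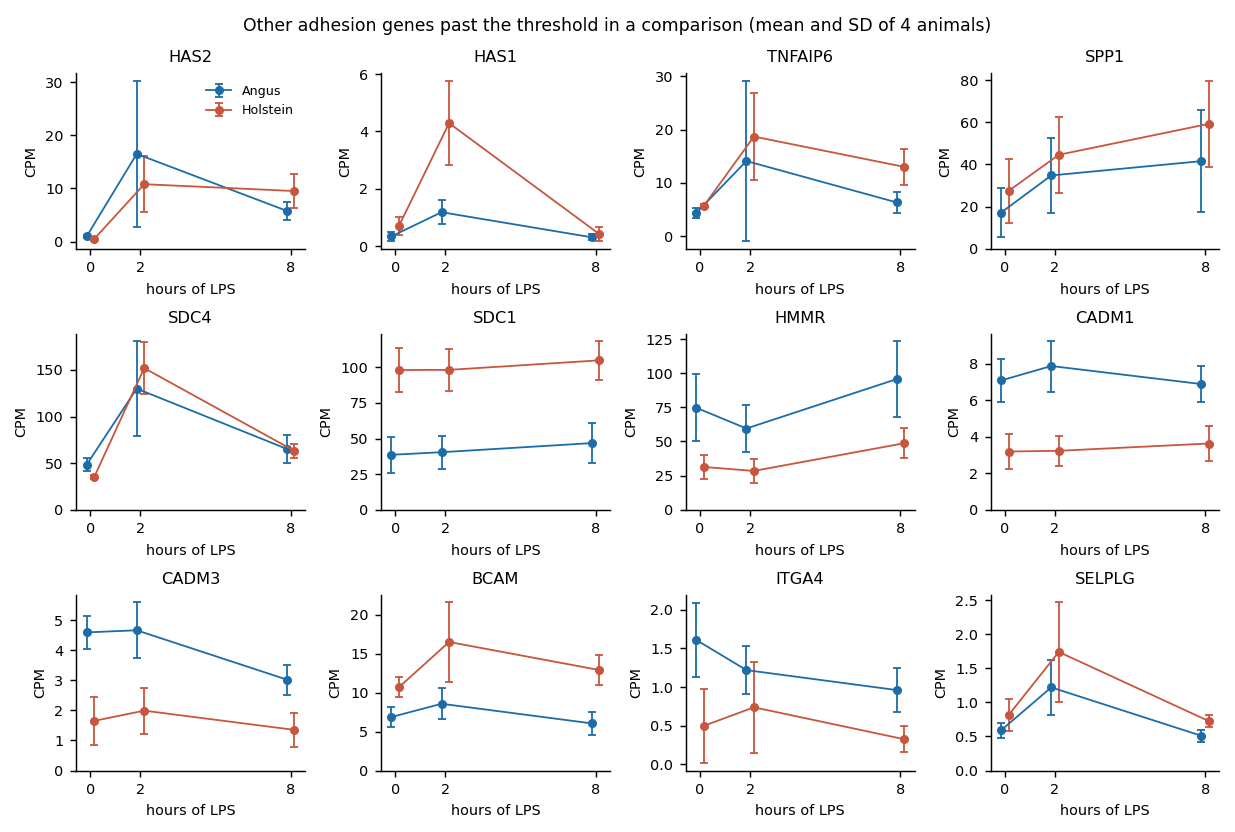
Mean CPM (y axis) with the SD of 4 animals at 0, 2 and 8 hours of LPS (x axis) for the 12 listed genes past the threshold in some comparison, Angus in blue and Holstein in red. HAS2, HAS1, TNFAIP6 and SDC4 peak at 2 h in at least 1 breed, and SDC1, CADM1, CADM3 and HMMR keep a gap between the breeds.

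The symbol rows whose pattern over the 24 samples was most like each member, by Pearson r on log2(CPM + 1) among 12957 rows, are given as a description, since all share the same samples. For VCAM1 they were CYP7B1, an enzyme of oxysterol breakdown (r = 0.937), PDXK, which makes the active form of vitamin B6 (0.936), and the chemokine gene CCL5 (0.924). For CD44 they were IL27RA, a cytokine receptor chain (0.930), the kinase gene ABL1 (0.925) and the neutrophil-attracting chemokine gene IL8 (0.922). The ICAM1 locus row was most like RASSF4 (0.930), the integrin chain ITGAV (0.915) and PLEKHA6 (0.912). ALCAM had weaker partners, PNPLA8 (0.808), CCNDBP1 (0.806) and TTC18 (0.750). For THY1 they were ULBP15 (0.915), the non-coding RNA gene MEG3 (0.873) and the complement gene C4A (0.856). The ICAM1-named row was most like PTBP1 (0.957).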

How the data were processed

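The authors aligned quality-filtered reads of polyadenylated RNA to UMD v3.1 with NextGENe 2.3.4 (base calls by CASAVA 1.7, per the labels) and deposited 1 table per sample. The deposited read counts are raw whole numbers per row, and a read could be credited to overlapping rows. Mean coverage, a signal column that the authors deposited beside the counts, was used only to check how reads were counted. The members and gene lists were chosen with earlier results of these data known. Rows with CPM of at least 1 in 50% of the samples compared were fitted with edgeR 4.0.16 (R 4.3.3): TMM scaling, a generalized linear model, a likelihood-ratio test and Benjamini-Hochberg adjustment over all rows. Scaling by TMM is not named by the study. Each comparison used its own samples. Standard errors and 95% intervals (1.96 SE) came from the model. DESeq2 1.42.0 served as an alternative. All 5 members are named in each comparison, and listed genes where they passed the threshold. Scripts were tested on simulated data.

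The labels give the animal, so its 3 hours are paired. Deviations from the group means correlated at 0.432 or more within an animal and at no more than 0.269 between animals. The study's methods name a likelihood-ratio test and no block. The fits here had no animal block. Blocked values stand beside the calls they change, the VCAM1 calls in Angus and some that pass the FDR limit alone. Equal numbers in different breeds are different animals. ICAM2 had no row. Sequences are not used here.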

Additional observations from a re-analysis of the deposited data

Results flagged for a closer look

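Of the 36 groups of 4 samples examined (5 members and the ICAM1 locus row in 6 groups), 1 held a sample far from the others, and chance alone flags about 1 in 20 groups. The ICAM1-named row after PTBP1 stood at 20.5 CPM in Angus 3 at 0 h, where the other Angus animals had 29.1 to 30.6 CPM. PTBP1 was also lowest in that sample, at 151 CPM against 189 to 244 CPM. Whether the sample and the row share a source was not tested.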

How the results depend on the processing

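Of 1792 single-gene differences recomputed under an alternative, 1679 kept their direction and their side of the threshold, 53 dropped below it, 20 passed it and 40 changed sign, where a difference of 0.00 was given no direction. The cause was not tested. The number of members past the threshold was 0 at 2 h and 8 h both with the breeds combined and in Angus. It became 1 in each without the expression filter and in 1 fit of all 24 samples, where VCAM1 was tested, and with the FDR limit alone, and for the combined comparisons also without the samples with other COL1A1 counting. Leaving out 1 animal gave 0 to 1 in these 4 comparisons and 1 to 2 in Holstein at 8 h. The FDR limit alone gave 3 in Holstein at 2 h, 2 from 2 h to 8 h and 1 between the breeds at each hour. The replicate block, with the likelihood-ratio or the quasi-likelihood test, gave 1 in place of 0 in Angus from 2 h to 8 h and changed no other count of members. With the ICAM1 locus row in place of the ICAM1-named row, a swap chosen after seeing the data, the count was 2 in Holstein at 2 h, 3 in place of 2 there at 8 h, and 1 both for the breeds combined at 8 h and between the breeds at 8 h. For the breeds combined, the study's own lists of changed genes hold VCAM1 at 2 h and 8 h and ICAM1 at 8 h.

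The changes of sign were in small or wide differences on the log2 scale. Without scaling beyond library size, the ICAM1-named row was at 0.05 at 8 h combined and 0.02 in Angus at 8 h, THY1 at -0.01 in Angus at 2 h, and from 2 h to 8 h in Angus ALCAM was at 0.09 and the ICAM1 locus row at 0.23. Without the samples with other COL1A1 counting, THY1 was at 0.14 in Holstein at 8 h, the ICAM1 locus row at -0.09 in Angus at 2 h and 0.76 from 2 h to 8 h, the ICAM1-named row at 0.01 in Angus at 8 h, CD44 at 0.02 between the breeds at 2 h, and the VCAM1 interaction at 2 h at 0.62. With the replicate block the ICAM1 locus row from 2 h to 8 h in Angus was at 0.21, or 0.19 with the quasi-likelihood test. Leaving out 1 animal gave -0.18 to 0.46 for that difference. For the ICAM1-named row at 8 h it gave -0.05 to 0.02 combined, -0.02 to 0.04 in Holstein, -0.11 to 0.04 in Angus and -0.03 to 0.12 for the interaction. For CD44 it gave -0.01 to 0.02 in Angus from 2 h to 8 h, -0.12 to 0.05 and -0.09 to 0.06 between the breeds at 0 h and 2 h, and -0.10 to 0.12 for the interaction at 2 h. For VCAM1 at 2 h it gave -0.31 to 0.94 between the breeds, where leaving out Holstein 2 or Angus 3 set the ends and leaving out Angus 4 gave -0.06, and -0.71 to 0.19 for the interaction. The ALCAM and THY1 interactions at 2 h ran from -0.05 to 0.10 and -0.03 to 0.07. Of 33 calls among listed genes, 22 held under every alternative. With 4 animals a group, a VCAM1 difference between breeds within its wide errors was not detectable.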

Other observations

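SELP, the gene of P-selectin and a listed vascular ligand, was under the expression filter and was singled out after its values were seen. It had 0.0816 to 0.399 CPM in the Holstein samples at 8 h, with at most 40 counts. At 0 h and 2 h it had no more than 0.0599 and 0.0784 CPM in Holstein. In Angus the highest level at any hour was 0.0837 CPM, or 8 counts, at 8 h. No test is given for it.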
